A study of Mus musculus with 14 samples.

Results

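The BCL-2 family genes examined here were 10 genes listed by name: the survival genes Bcl2, Bcl2l1 and Mcl1, the effectors Bax and Bak1, and the BH3-only genes Bcl2l11, Bid, Bad, Bbc3 and Pmaip1. The array's annotation gave a single-gene probe set to 9 of the 10, out of 18193 genes with one, and Bax was not analysed here. Of a gene's probe sets the one with the highest mean over the 14 arrays stands for the gene. All 9 lay above the median of the whole table (7.52 log2) on every array, so all were among the 12192 genes tested. Their expression was read in dendritic cells grown for 8 days from BALB/c bone marrow progenitors with recombinant granulocyte-macrophage colony-stimulating factor (GM-CSF), 2 arrays for each of 7 groups.

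Every culture first received a 1 h treatment, with DMSO at 0.01% listed for every group. The solvent group had DMSO alone and nothing further. The CLIK148 and CA074Me groups had in addition 5 µM of a cathepsin L or a cathepsin B inhibitor, and no stimulus. The CpG and TNF groups had DMSO and then CpG oligonucleotide at 25 µg/mL, a ligand of Toll-like receptor 9 labelled pro-Th1, or tumour necrosis factor alpha (TNF) at 500 U/mL, labelled pro-Th2. The remaining groups had CLIK148 before CpG or CA074Me before TNF. Per the series design text the whole set was run in 2 independent experiments, taken here as replicate numbers 1 and 2, so each comparison can also be read within an experiment. The arrays measured unsorted cultures, in which fewer cells of a type and less RNA per cell cannot be told apart. The time from stimulus to harvest is unknown here. Values are on the log2 scale of the deposited table, 2 arrays a group limit the precision, and "called", "rose" and "fell" mean a Benjamini-Hochberg adjusted p under 0.05 over the 12192 genes.

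BCL-2 family proteins decide whether the outer mitochondrial membrane is breached during apoptosis. The effectors BAX and BAK form the pore, the survival proteins BCL-2, BCL-XL (Bcl2l1) and MCL-1 hold them in check, and the BH3-only proteins, such as BIM (Bcl2l11), BID, BAD, PUMA (Bbc3) and NOXA (Pmaip1), occupy the survival proteins or engage the effectors directly. In dendritic cells, BIM and the survival proteins that oppose it are known to set how long an activated cell lives. BID is cut to its active form by caspase-8, and lysosomal cathepsins can also cut it, which ties this family to the proteases that CLIK148 and CA074Me block.

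The 300-base start-site windows of 4 members are shown because the members were called with CpG in the fit with the experiment as a block, 2 of them higher and 2 lower. For Bcl2l1, Bcl2l11 and Bbc3 the windows shown are those that hold a motif, and the only Bid window in the table holds none. The sequences are from RefSeq on GRCm38.p6, 250 bases before to 50 after an annotated start, read 5′ to 3′ along the gene's strand. Capitals mark letters that match a kappaB consensus (the NF-kB binding motif), the FOXO core GTAAACA or the AP-1 motif TGANTCA on either strand.
Bcl2l1 (chr2:152830668-152830967, minus strand): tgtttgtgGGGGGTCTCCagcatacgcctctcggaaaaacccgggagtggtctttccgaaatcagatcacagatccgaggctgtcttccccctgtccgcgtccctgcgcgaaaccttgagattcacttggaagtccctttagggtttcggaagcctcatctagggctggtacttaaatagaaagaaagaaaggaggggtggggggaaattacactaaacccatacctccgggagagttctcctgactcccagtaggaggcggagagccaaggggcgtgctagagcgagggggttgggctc
Bcl2l11 (chr2:128125788-128126087, plus strand): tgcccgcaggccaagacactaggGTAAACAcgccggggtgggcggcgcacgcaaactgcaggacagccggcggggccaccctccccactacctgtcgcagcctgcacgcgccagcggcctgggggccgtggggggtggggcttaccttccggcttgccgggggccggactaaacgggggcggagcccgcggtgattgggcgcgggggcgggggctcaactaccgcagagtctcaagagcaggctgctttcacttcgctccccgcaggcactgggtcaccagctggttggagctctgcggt
Bid (chr6:120916775-120917074, minus strand): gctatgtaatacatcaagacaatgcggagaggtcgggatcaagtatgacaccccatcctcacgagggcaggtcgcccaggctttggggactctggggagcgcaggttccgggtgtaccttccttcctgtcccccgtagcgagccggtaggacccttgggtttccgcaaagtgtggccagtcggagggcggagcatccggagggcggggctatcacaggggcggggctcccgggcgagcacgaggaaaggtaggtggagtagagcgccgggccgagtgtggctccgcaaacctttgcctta
Bbc3, first window (chr7:16309333-16309632, plus strand): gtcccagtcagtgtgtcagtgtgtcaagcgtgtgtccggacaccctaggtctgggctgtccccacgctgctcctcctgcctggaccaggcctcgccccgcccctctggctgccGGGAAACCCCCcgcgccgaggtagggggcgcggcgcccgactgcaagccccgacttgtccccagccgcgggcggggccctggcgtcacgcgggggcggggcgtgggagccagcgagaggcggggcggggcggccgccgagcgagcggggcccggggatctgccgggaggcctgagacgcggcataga
Bbc3, second window (chr7:16310011-16310310, plus strand): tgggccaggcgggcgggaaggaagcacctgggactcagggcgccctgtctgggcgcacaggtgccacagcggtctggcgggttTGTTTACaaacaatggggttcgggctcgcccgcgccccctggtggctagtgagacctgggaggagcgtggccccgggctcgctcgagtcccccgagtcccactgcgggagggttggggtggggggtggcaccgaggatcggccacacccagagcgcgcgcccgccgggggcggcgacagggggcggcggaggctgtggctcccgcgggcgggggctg

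The capitals in the Bcl2l1 window and the first Bbc3 window are kappaB consensus matches, which in Bbc3 overlap on both strands. Those in the Bcl2l11 window and the second Bbc3 window are the FOXO core. Of 3 Bcl2l1, 2 Bcl2l11 and 3 Bbc3 windows in the table, the others held none of the 3 motifs. Over all 32851 windows of this length 4.51% held the kappaB consensus, 3.65% the FOXO core and 7.81% the AP-1 motif. Windows of Bcl2, Mcl1, Bak1 and Bad held none of the 3. A match describes these letters and shows no binding.

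Bcl2l1, the gene of BCL-XL, had the widest spread of group means among the members (1.39 log2). It read 9.70 and 9.74 log2 in solvent in experiments 1 and 2, 9.93 and 9.81 in CLIK148, and 9.66 and 9.80 in CA074Me. It read 10.54 and 10.18 in TNF, 10.58 and 10.71 in CA074Me plus TNF, 11.17 and 10.77 in CLIK148 plus CpG, and 11.30 and 10.93 in CpG. Every stimulated array lay above every unstimulated one. The order of the group means ran from solvent, CA074Me and CLIK148 through TNF and CA074Me plus TNF to CLIK148 plus CpG and CpG. Among neighbours, the arrays of solvent and CA074Me and those of CLIK148 plus CpG and CpG overlapped. CA074Me and CLIK148, and TNF and CA074Me plus TNF, did not overlap but were 0.14 and 0.28 log2 apart in their means, differences that were not called.

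**Figure D1:**
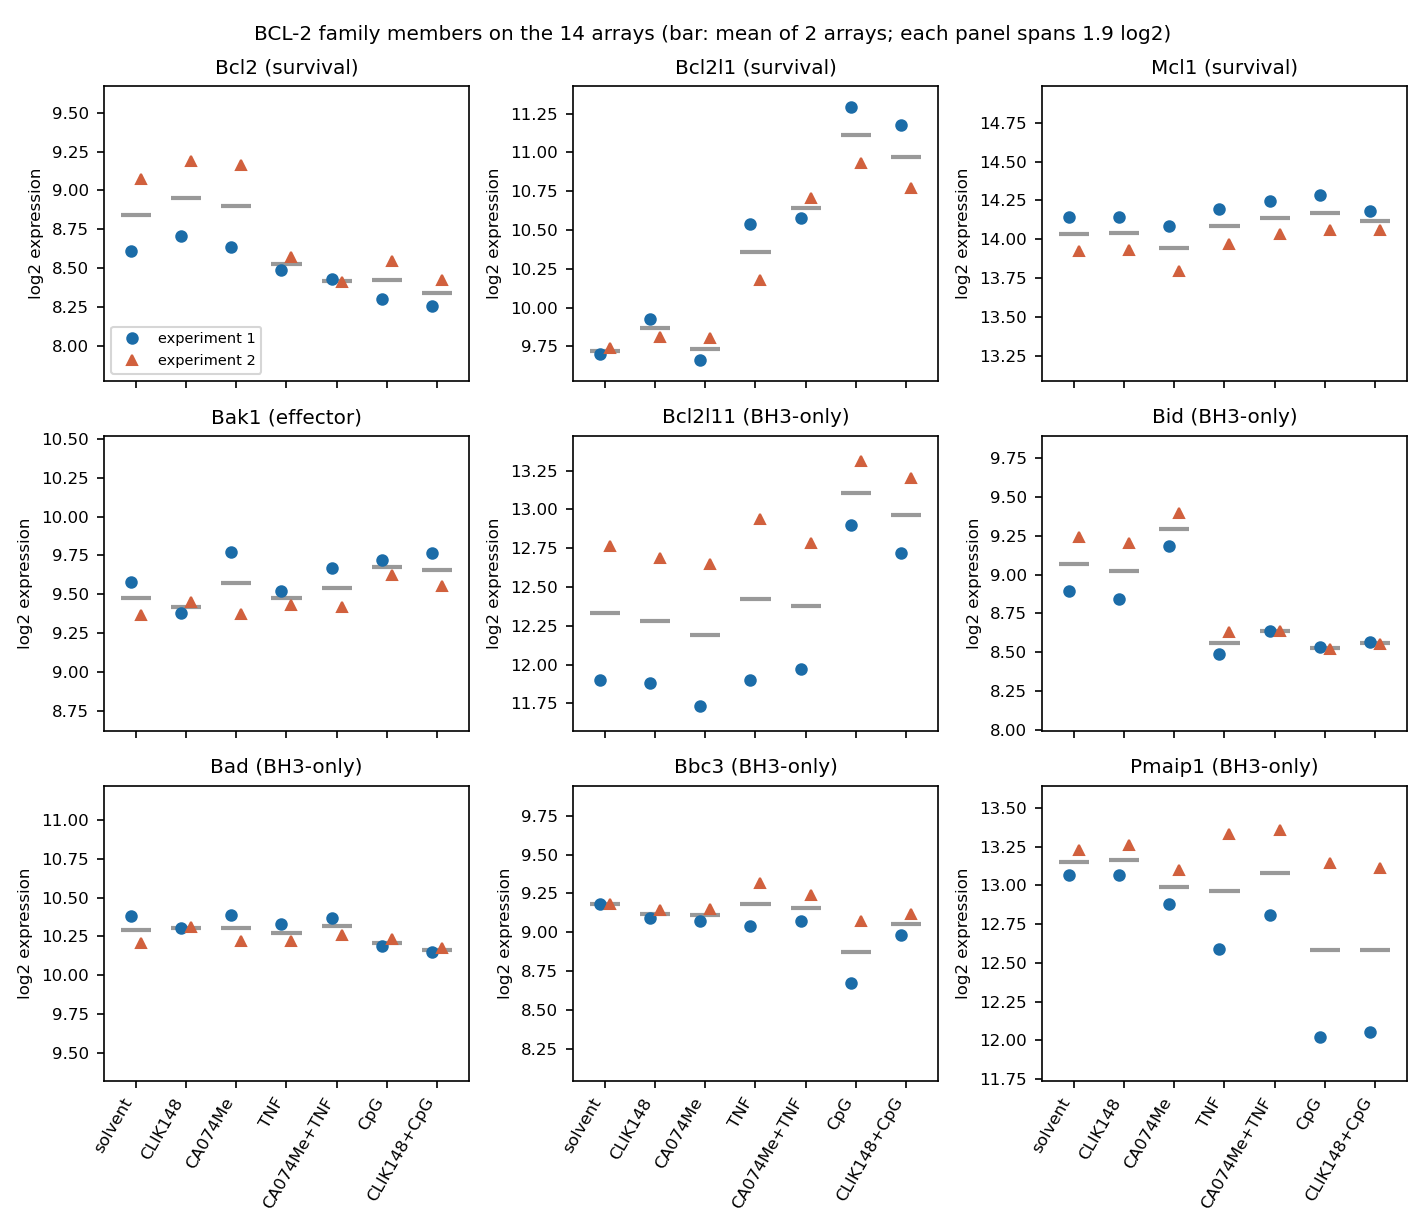
Log2 expression of the 9 measured BCL-2 family members (y axis; each panel spans the same width) in the 7 groups (x axis), with circles for experiment 1, triangles for experiment 2 and grey bars for the mean of 2 arrays. Bcl2l1 was higher on all stimulated arrays than on all unstimulated ones, Bid was lower on all of them, and Bcl2l11 was higher in experiment 2 than in experiment 1 in each of the 7 groups.

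CpG raised Bcl2l1 by 1.39 log2 with a standard error of 0.17 (limma adjusted p = 0.00904), or 2.62-fold, with 1.59 and 1.19 in experiments 1 and 2. After CLIK148, CpG raised it by 1.11 ± 0.17 (adjusted p = 0.0273), or 2.15-fold. After CA074Me, TNF raised it by 0.91 ± 0.17 (adjusted p = 0.0437), or 1.88-fold, by nearly equal amounts of 0.92 and 0.91 in the experiments. With TNF after solvent it was 0.64 ± 0.17 log2 higher (0.84 and 0.44; adjusted p = 0.346, and 0.059 with the experiment as a block), past the threshold in neither fit. CpG stood 0.75 ± 0.17 log2 above TNF (0.76 and 0.75; limma adjusted p = 0.472, and 0.0795 with the block). Between CpG and TNF, 0 of 9 members were called without the block and 0 with it, where 0.00820% and 0.435% of all genes were, and 1 and 3 members had an unadjusted p under 0.05, as did 6.34% and 15.7% of all genes. These are the only calls for a member without the block: 1 of 9 members with CpG, where 1.92% of all genes tested passed, 1 of 9 with CpG after CLIK148 (0.812%), 1 of 9 with TNF after CA074Me (1.30%) and 0 of 9 with TNF (0.115%; 2 members and 7.21% of all genes had an unadjusted p under 0.05 in limma).

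The Bcl2l1 calls rest on few arrays. Without solvent array 1, solvent array 2 or CpG array 1 its adjusted p with CpG was 0.107, 0.0875 or 0.0821 at changes of 1.37, 1.41 and 1.21 log2, and without CpG array 2 it was 0.0112 at 1.57. After CLIK148 the call was lost without either CLIK148 array (0.179 and 0.198) or the first CLIK148 plus CpG array (0.249), and after CA074Me without any 1 of the 4 arrays (0.138 to 0.323). With the experiment as a block the CpG call held without each of the 4 arrays (0.00244 to 0.0234). The blocked call after CLIK148 was lost without CLIK148 array 1 (0.0509), and that after CA074Me without CA074Me array 1 (0.0857) or the second CA074Me plus TNF array (0.0819). Averaged over its 4 probe sets, Bcl2l1 changed by 0.60, 0.59 and 0.39 log2 in the 3 comparisons (adjusted p = 0.0172, 0.0286 and 0.0877). The probe sets not used here were dim, with means of 7.63, 7.62 and 6.79 log2. They lay above the table's median on 8, 9 and 0 arrays, and the last was too dim to test. All 4 were higher in each comparison, and 3, 3 and 1 of them passed when fitted singly with the block.

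The genes whose levels over the 14 arrays, each taken relative to its experiment's mean, were most like those of Bcl2l1 were Elp5 (Pearson r = 0.991), Swap70 (r = 0.990) and Nectin2 (r = 0.988). With CpG, Elp5 was 0.44 log2, Swap70 1.29 log2 and Nectin2 0.92 log2 above solvent. These correlations are descriptions over arrays that share their treatments.

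A fit with the experiment as a block was also made, since the arrays of an experiment moved together. It called 4 of 9 members with CpG, 4 of 9 with CpG after CLIK148, 1 of 9 with TNF and 2 of 9 with TNF after CA074Me. Over all genes tested the same fit called 19.8%, 17.0%, 3.11% and 11.1% in these comparisons. With CpG the 4 were Bcl2l1, Bcl2l11, Bid and Bbc3, and after CLIK148 they were Bcl2l1, Bcl2l11, Bid and Bcl2. With TNF it was Bid, and after CA074Me Bid and Bcl2l1. The median change of the 9 members with CpG was -0.09 log2, beside -0.05 for all genes tested.

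**Figure D2:**
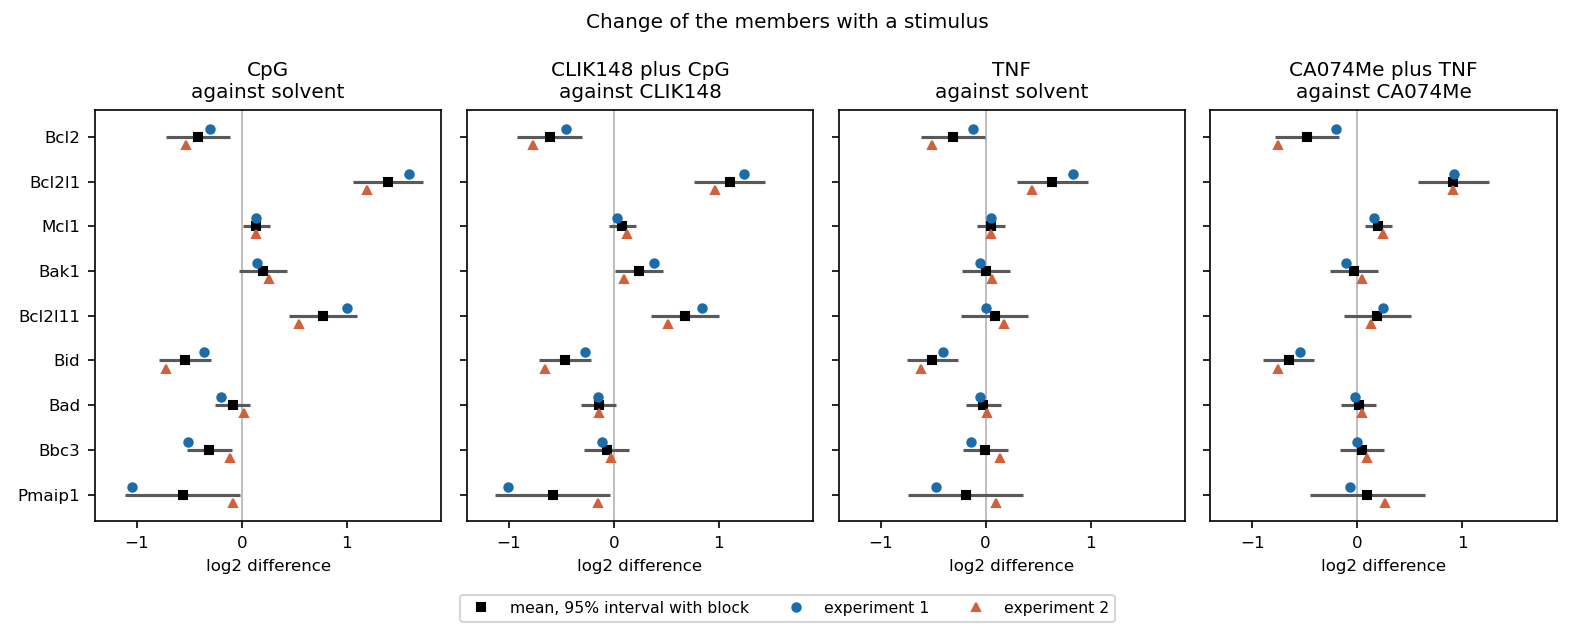
Log2 difference (x axis) of each member (y axis) between a stimulated group and its matched unstimulated group, with circles and triangles for experiments 1 and 2, and squares with lines for the mean and the 95% interval of the fit with the block. Bcl2l1 lay right of 0 and Bid left of 0 in all 4 comparisons, while Bcl2l11 stood at 0.77 and 0.68 log2 with CpG and at 0.09 and 0.19 with TNF.

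Bcl2l11 encodes BIM, a BH3-only protein that can bind all the survival proteins and engage the effectors. It read 11.90 and 12.77 log2 in solvent in experiments 1 and 2, 11.88 and 12.69 in CLIK148, 11.73 and 12.65 in CA074Me, 11.90 and 12.94 in TNF, and 11.97 and 12.78 in CA074Me plus TNF. CpG read 12.90 and 13.32 and CLIK148 plus CpG 12.72 and 13.20. Experiment 2 was the higher in 7 of 7 groups, by 0.42 to 1.04 log2, so that solvent in experiment 2 lay near CpG in experiment 1. Within an experiment both CpG groups lay above the unstimulated groups.

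With CpG, Bcl2l11 was higher by 0.77 log2, or 1.71-fold, with 1.00 and 0.55 in experiments 1 and 2. It rose in the fit with the block (± 0.14, limma adjusted p = 0.00927) and was not called without it (± 0.50, adjusted p = 0.447). After CLIK148 the CpG change was 0.68 log2 (± 0.14 and adjusted p = 0.0164 with the block, ± 0.50 and 0.51 without). With TNF it was 0.09 log2, with a blocked 95% interval from -0.23 to 0.41, and after CA074Me 0.19, from -0.13 to 0.51. CpG stood 0.69 log2 above TNF (1.00 and 0.38; limma adjusted p = 0.932, and 0.0879 with the block), so the difference between the stimuli did not pass on this probe set. The blocked CpG call was lost without solvent array 1 (0.71 log2, adjusted p = 0.0917) or CpG array 1 (0.57, 0.0677), and after CLIK148 without CLIK148 array 1 (0.129), CLIK148 array 2 (0.0715) or the first CLIK148 plus CpG array (0.151).

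All 5 Bcl2l11 probe sets were higher with CpG in both experiments. Fitted each on its own with the block, the 5 passed, at 0.77, 1.03, 0.92, 1.15 and 1.61 log2 in falling order of brightness (limma adjusted p = 0.0110, 0.00402, 0.00316, 0.00432 and 0.0050). The dimmest changed by 2.06 and 1.16 log2 in experiments 1 and 2 and also passed without the block (adjusted p = 0.0235), and the other 4 did not (0.0801 to 0.472). Averaged over the probe sets the change was 1.10 log2 (adjusted p = 0.105 without the block). With TNF the 5 lay between 0.08 and 0.36 log2, and 0 passed in limma with the block (adjusted p = 0.461 to 0.771). CpG stood above TNF in all 5, by 0.69 to 1.25 log2, and 2 of the 5 passed with the block (0.0301 and 0.0459). These fits of single probe sets with the block were added after the data were seen. Closest to Bcl2l11 in pattern over the 14 arrays were Rabep2 (Pearson r = 0.987), Frzb (r = 0.982) and Ahcyl1 (r = 0.981), which were 0.88, 0.62 and 0.68 log2 above solvent with CpG and 0.06, 0.01 and -0.03 from it with TNF.

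Bid was lower on every stimulated array than on any unstimulated one. It read 8.89 and 9.24 log2 in solvent, 8.84 and 9.20 in CLIK148, and 9.19 and 9.40 in CA074Me. It read 8.49 and 8.63 in TNF, 8.64 and 8.64 in CA074Me plus TNF, 8.53 and 8.52 in CpG, and 8.57 and 8.55 in CLIK148 plus CpG. The 8 stimulated arrays thus lay between 8.49 and 8.64 log2 and the 6 unstimulated ones between 8.84 and 9.40.

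In the fit with the block Bid fell by 0.54 ± 0.11 log2 with CpG (limma adjusted p = 0.0121), or 1.46-fold. It fell by 0.46 ± 0.11 with CpG after CLIK148 (adjusted p = 0.0234), by 0.51 ± 0.11 with TNF (0.0436), and by 0.65 ± 0.11 with TNF after CA074Me (0.00722), or 1.57-fold. Without the block none of these passed (adjusted p = 0.0973, 0.161, 0.379 and 0.0764). The blocked CpG call was lost without solvent array 2 (-0.42 log2, adjusted p = 0.0743), and the call after CA074Me without CA074Me array 1 (0.0609) or the second CA074Me plus TNF array (0.0858). The calls with TNF and with CpG after CLIK148 were lost without any 1 of their 4 arrays (0.139 to 0.336, and 0.0665 to 0.127). When every probe set was tested on its own with the block, the one used here lost its call with TNF (limma adjusted p = 0.0548) and kept the other 3. Of the 3 Bid probe sets, 1, 1, 0 and 1 passed in the 4 comparisons, in the same order. The probe sets not used here passed in none of them (adjusted p = 0.0636 to 0.607). All 3 Bid probe sets were lower in these 4 comparisons, and their average changed by -0.31, -0.31, -0.26 and -0.41 log2, in the order given above.

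The genes most like Bid over the 14 arrays were Cd7 (Pearson r = 0.961), the replication helicase gene Mcm2 (r = 0.959) and the ceroid lipofuscinosis gene Cln8 (r = 0.959). Markers of dividing cells had a lower summed level on the stimulated than on the unstimulated arrays within each experiment. Of 4 listed, 3 had a probe set of their own (Mki67, Top2a and Rrm2), all above the table's median on all 14 arrays. Their summed level was 13.66 and 13.73 log2 in solvent in experiments 1 and 2, 13.56 and 13.74 in CLIK148, and 13.50 and 13.61 in CA074Me. With stimulus it was 13.03 and 13.50 in CpG, 13.06 and 13.46 in CLIK148 plus CpG, 13.09 and 13.47 in TNF, and 13.12 and 13.43 in CA074Me plus TNF. CA074Me, the group highest in Bid, had the lowest sum of the unstimulated groups. The part of these markers in the Bid result was not tested.

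Bcl2, the founding survival gene, moved with Bid (Pearson r = 0.901 over the 14 arrays, relative to each experiment's mean). It read 8.61 and 9.08 log2 in solvent, 8.71 and 9.19 in CLIK148, and 8.64 and 9.17 in CA074Me. It read 8.49 and 8.57 in TNF, 8.43 and 8.41 in CA074Me plus TNF, 8.30 and 8.54 in CpG, and 8.25 and 8.42 in CLIK148 plus CpG. All 8 stimulated arrays lay below all 6 unstimulated ones. The gap between experiments, 0.47 to 0.53 log2 in the unstimulated groups, was 0.24 or less in the stimulated groups.

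Bcl2 fell by 0.61 ± 0.14 log2 with CpG after CLIK148 in the fit with the block (limma adjusted p = 0.0201), or 1.53-fold, and was not called without it (± 0.22, adjusted p = 0.221). The call was lost without any 1 of the 4 arrays (0.0686 to 0.109). With CpG after solvent it was -0.42 log2 (limma adjusted p = 0.0576 with the block, 0.358 without), with TNF -0.31 (0.232 and 0.83), and with TNF after CA074Me -0.48 (0.0529 and 0.435). Averaged over its 5 probe sets the change with CpG after CLIK148 was -0.22 log2 (adjusted p = 0.322 without the block). In that comparison the 5 ran from -0.61 to -0.009 log2. Of those bright enough to fit singly with the block, only the one used here passed. The 5 all lay below 0 with CpG after solvent, from -0.42 to -0.06 log2. The division markers given for Bid have lower summed levels in the same groups in which Bcl2 was lower, and their part in the Bcl2 result was not tested. Of the 4 Bcl2 probe sets not used here, 1 lay above the table's median on all arrays. It stood at -0.009 log2 with CpG after CLIK148 (limma adjusted p = 0.963 with the block). Another lay above the median on 3 arrays, and the rest on 0 of 14.

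Mcl1 encodes a short-lived survival protein. It read 14.14 and 13.92 log2 in solvent, 14.28 and 14.06 in CpG, 14.20 and 13.97 in TNF, and 14.25 and 14.03 in CA074Me plus TNF. The whole range over 14 arrays was 13.79 to 14.28. Experiment 1 was the higher in 7 of 7 groups, by 0.12 to 0.30 log2. The change was 0.14 log2 with CpG, the same in both experiments (limma adjusted p = 0.662, and 0.119 with the block). It was 0.20 log2 with TNF after CA074Me (0.69, and 0.0584 with the block).

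The 6 Mcl1 probe sets did not run together with CpG. The brightest, used here, and 1 other were higher by 0.14 and 0.20 log2, and the remaining 4 stood at -0.23 to -0.14. These 4 ran from -0.41 to -0.35 log2 in experiment 1 and from -0.05 to 0.08 in experiment 2. Of the 6, 0 passed in limma with or without the block (adjusted p with the block 0.105 to 0.384), and the mean over the 6 was -0.07 log2, opposite in sign to the brightest. No direction can therefore be given for Mcl1 with CpG. With CpG after CLIK148 and with TNF, 2 were again higher and 4 lower. All 6 were higher with TNF after CA074Me (0.0008 to 0.28 log2) and lower with CA074Me alone (-0.17 to -0.08), and 0 passed with the block.

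**Figure D3:**
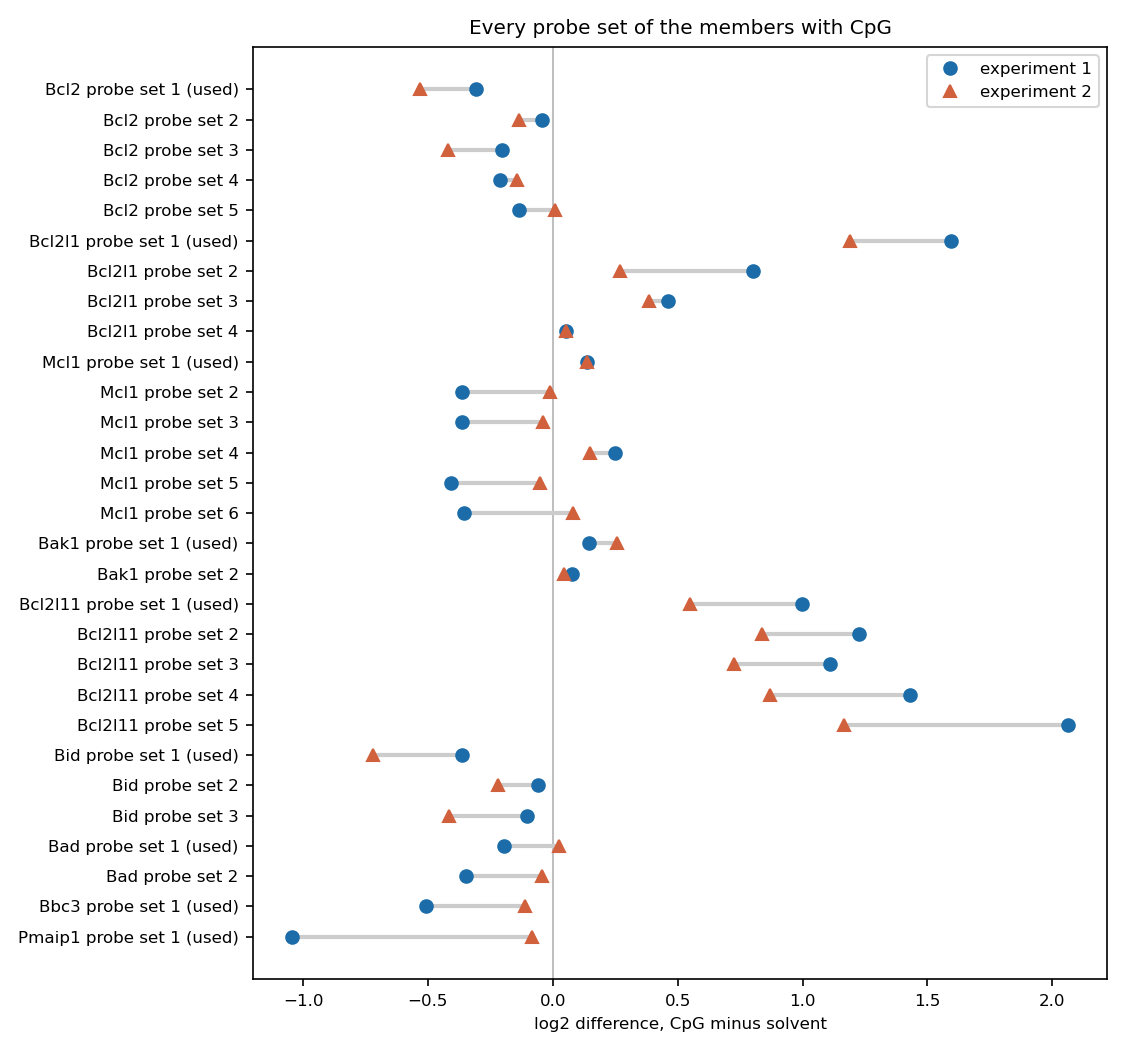
Log2 difference between CpG and solvent (x axis) in experiment 1 (circles) and experiment 2 (triangles) for each single-gene probe set of the members (y axis), numbered within a gene from the highest mean level. The 5 Bcl2l11 probe sets lay between 0.55 and 2.06 log2, and those of Mcl1 lay on both sides of 0.

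Bak1, the effector measured, stayed within 9.37 to 9.77 log2 on the 14 arrays. It was 0.20 log2 higher with CpG (0.14 and 0.26; limma adjusted p = 0.508, and 0.177 with the block), 0.24 with CpG after CLIK148 (0.39 and 0.10; 0.433 and 0.118), and 0.00 with TNF, where the blocked 95% interval ran from -0.22 to 0.23. Bad, whose BH3-only product is held inactive by survival-factor kinases, had the narrowest range, 10.15 to 10.39 log2. Its largest group difference with a stimulus was -0.14 log2, with CpG after CLIK148 (adjusted p = 0.437, and 0.192 with the block).

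Bbc3 and Pmaip1 encode PUMA and NOXA, BH3-only proteins known as p53 targets. Bbc3 read 9.18 and 9.18 log2 in solvent and 8.67 and 9.07 in CpG. It fell by 0.31 ± 0.09 log2 with CpG in the fit with the block (limma adjusted p = 0.0476), with -0.51 and -0.11 in the experiments, and was not called without it (0.276). The call was lost without solvent array 1 (-0.22 log2), solvent array 2 (-0.40) or CpG array 1 (-0.17). Bbc3 and Pmaip1 rest on 1 probe set each. The same Bbc3 values also lost the call when the blocked fit ran over every probe set instead of 1 per gene (limma adjusted p = 0.0561). Without CpG array 2 Bbc3 was called also in the fit without the block (-0.51 log2, adjusted p = 0.0401), and after cyclic loess its change was -0.18 log2 (0.276). After CLIK148, CpG arrays read 8.98 and 9.12, -0.07 log2 from CLIK148 alone.

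Pmaip1 showed the sharpest split between the experiments. It read 13.07 and 13.23 log2 in solvent, 13.07 and 13.26 in CLIK148, 12.88 and 13.10 in CA074Me, 12.59 and 13.33 in TNF, and 12.81 and 13.36 in CA074Me plus TNF. CpG read 12.02 and 13.15, and CLIK148 plus CpG 12.05 and 13.11. In experiment 1 both CpG arrays were about 1 log2 below their unstimulated partners (-1.04 and -1.01), and in experiment 2 they were -0.08 and -0.15 from them. The mean changes of -0.56 and -0.58 log2 did not pass (limma adjusted p = 0.527 and 0.52, and 0.125 and 0.122 with the block). Experiment 2 was the higher in 7 of 7 groups, by 0.16 to 1.12 log2.

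Neither inhibitor changed a member past the threshold. CLIK148 alone moved the 9 members by at most 0.15 log2 (Bcl2l1) and CA074Me alone by at most 0.22 (Bid), and 0 were called with or without the block. Under stimulus the largest differences were 0.18 log2 with CLIK148 before CpG (Bbc3, with 0.31 and 0.05 in the experiments) and 0.28 with CA074Me before TNF (Bcl2l1, with 0.04 and 0.53). Across these 4 comparisons 0 of 9 members had an unadjusted p under 0.05 in limma with or without the block. The lowest bound of the blocked 95% intervals was -0.71 log2, with CA074Me alone, and the highest 0.67, with CA074Me before TNF. Both were from Pmaip1. Over all genes tested limma called 0 in each of the 4 without the block (12, 67, 68 and 98 genes had an unadjusted p under 0.05 with CLIK148, CA074Me, CLIK148 before CpG and CA074Me before TNF). With the block it called 1 gene with CA074Me before TNF (0.00820%) and 0 in the others, where 45, 336 and 226 had an unadjusted p under 0.05.

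**Figure D4:**
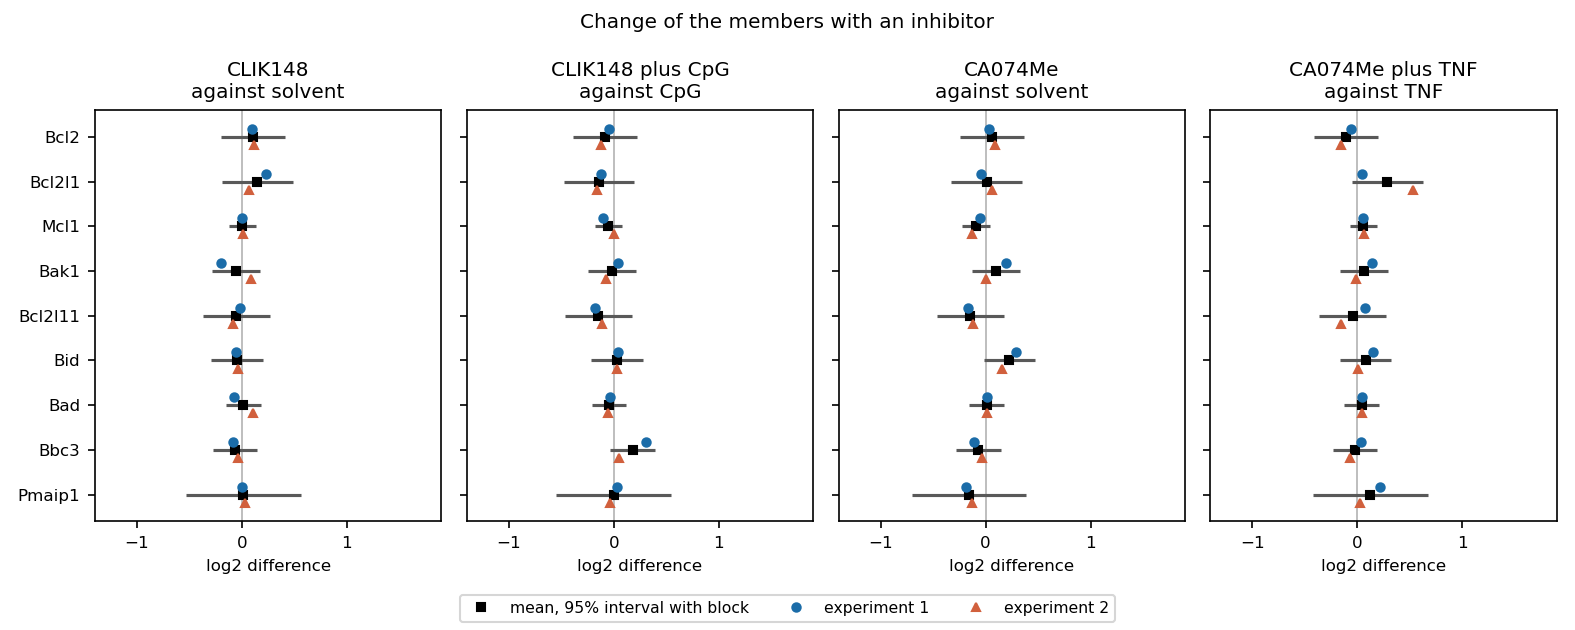
Log2 difference (x axis, on the scale used for the stimuli) of each member (y axis) between cells with and without an inhibitor, unstimulated or under the same stimulus, with circles and triangles for experiments 1 and 2, and squares with lines for the mean and the 95% interval of the fit with the block. The means lay between -0.16 and 0.28 log2, and each interval covers 0.

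Bid encodes a protein that cathepsins are known to cut, and its transcript was 9.19 and 9.40 log2 with CA074Me against 8.89 and 9.24 in solvent. This difference of 0.22 ± 0.11 log2 in the fit with the block had an interval from -0.02 to 0.47 and limma adjusted p = 1. Both compounds were used at the same dose for the same time, so 1 pair could be compared directly. CLIK148 stood below CA074Me in Bid by -0.27 log2 (blocked 95% interval -0.51 to -0.03; limma adjusted p = 1 over all genes tested, unadjusted 0.0334 with the block). Over all genes limma called 0 between the compounds in either fit, and 58 genes (0.476%) without the block and 288 (2.36%) with it had an unadjusted p under 0.05. The other 8 members differed between the compounds by -0.16 to 0.17 log2, with blocked intervals that reach from -0.38 to 0.72, which leaves room for differences of that size in either direction.

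The effect of a stimulus after an inhibitor was compared with that after solvent through the interaction. For Bcl2l1 it was -0.29 ± 0.24 log2 for CLIK148 by CpG and 0.27 ± 0.24 for CA074Me by TNF. Over the 9 members the interactions lay between -0.29 and 0.25 log2 for the first and between -0.17 and 0.28 for the second, and 0 of 9 had an unadjusted p under 0.05 in limma with or without the block. Over all genes 0 were called in either fit, with 15 and 80 genes at an unadjusted p under 0.05 without the block and 61 and 303 with it.

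Genes around the family were read from 6 lists. In the fit with the block 6.18% of all genes rose and 13.7% fell with CpG, 4.03% and 13.0% with CpG after CLIK148, 1.14% and 1.97% with TNF, and 4.96% and 6.14% with TNF after CA074Me. The first list holds 18 genes: other BCL-2 family genes, and Mtch2, Vdac1 and Vdac2, which are outside the family. Of the 18, 12 were tested, Mtch2, Vdac1 and Vdac2 among them. In limma 0 passed with or without the block in any of the 12 comparisons, with a median of -0.01 log2 for CpG. At an unadjusted p under 0.05 in limma there were 0 of these genes without the block and at most 1 with it in any comparison. Of all genes tested, 0.0984% to 18.2% lay under it without the block and 0.369% to 37.3% with it, the highest shares being those with CpG. The Bcl2a1 genes, survival genes that NF-kB induces, were not analysed here. Of 7 caspase inhibitors, 0 passed in limma without the block (3 had an unadjusted p under 0.05 with CpG, as did 18.2% of all genes). With it 3 rose with CpG, 3 with CpG after CLIK148, 1 with TNF and 3 with TNF after CA074Me, and 0 fell. Cflar, whose product FLIP blocks caspase-8, was 1.25 log2 higher with CpG (limma adjusted p = 0.0927, and 0.00527 with the block), and the ubiquitin ligase genes Birc2 and Birc3 0.86 and 0.67 log2 (0.00228 and 0.00711 with the block). Birc2 was also 0.59 log2 higher with TNF (0.0242 with the block). The list's median with CpG was 0.10 log2, beside -0.05 for all genes tested.

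Of 13 tested apoptosome and caspase genes 0 passed in limma without the block (5 had an unadjusted p under 0.05 with CpG, beside 18.2% of all genes). With it 1 rose and 4 fell with CpG, and 1 rose and 2 fell with TNF. The executioner caspase gene Casp6 was -1.22 log2 from solvent with CpG (limma adjusted p = 0.0031 with the block, 0.267 without) and -0.78 with TNF (0.041 with the block). Parp1, a DNA repair enzyme and caspase substrate, was -0.88 log2 with CpG (0.0141) and Casp2 -0.63 (0.0142). Htra2, a mitochondrial protease that relieves caspase inhibition when released, was 0.47 log2 higher with CpG (0.00376) and 0.58 higher with TNF (0.00854). With CpG after CLIK148 the counts were 1 and 4, and with TNF after CA074Me 2 rose and 2 fell, the rises being Htra2 (0.71 log2, adjusted p = 0.00102 with the block) and Apaf1, the apoptosome scaffold (0.37, 0.0135). The median with CpG was -0.15 log2.

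Among 12 tested p53-associated genes, which include known regulators and targets, the cell cycle inhibitor gene Cdkn1a rose by 0.73 ± 0.12 log2 with TNF after CA074Me (limma adjusted p = 0.0232, and 0.00518 with the block). No other gene of the list was called in that comparison, in which 3 of the 12 lay above 0. The list's median there was -0.20 log2, beside -0.02 for all genes tested. Cdkn1a was 0.39 log2 higher with CpG (limma adjusted p = 0.127, and 0.0378 with the block). Trp53inp1 and Ccng1 were -0.72 and -0.36 log2 with CpG (0.0299 and 0.0459 with the block), and the list's median was -0.27. With CpG after CLIK148, Trp53inp1 and Sesn2 were -0.67 and -0.66 log2 (0.0413 and 0.0369 with the block).

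On a list of death receptor, TNF receptor and necroptosis genes 9 were tested, and 1 rose with the block with CpG. This was Tnfrsf1b, which encodes TNF receptor 2, itself no death receptor (0.56 log2, limma adjusted p = 0.0212). It was 0.58 log2 higher with CpG after CLIK148 (0.0216) and 0.65 with TNF after CA074Me (0.0165), where the death receptor gene Fas was 0.68 higher (0.0475), all with the block. Of 14 tested regulators of the BH3-only genes and of MCL-1 supply, 1 rose and 2 fell with the block with CpG. Foxo3, a transcription factor that can induce Bcl2l11, was -0.84 log2 (adjusted p = 0.0141 with the block, 0.185 without). The survival kinase gene Pim2 was 0.58 log2 higher with CpG (0.00128 with the block, 0.63 without) and 0.68 above TNF (0.00314 with the block). E2f1 was -0.24 log2 (0.0314 with the block). These 2 lists had medians of -0.05 and 0.08 log2 with CpG, and with TNF 0 of their tested genes passed in limma in either fit (0 and 1 at an unadjusted p under 0.05 without the block, 3 and 3 with it, beside 7.21% and 20.5% of all genes).

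Of the marker lists, 7 of 7 dendritic cell, 5 of 5 macrophage and 6 of 6 measured granulocyte genes lay above the table's median on all 14 arrays. Genes listed for cell types other than the labelled one were thus also read above it. Which cells held these transcripts cannot be told from the arrays. Over the groups' means the summed level ran from 15.74 to 15.91 log2 for dendritic cell genes, 15.37 to 15.55 for macrophage genes and 16.29 to 16.40 for granulocyte genes. Both erythroid genes measured stayed at or below 7.23 log2. The B cell gene Cd79a reached 7.45 log2 and the T cell gene Cd3g 7.06, above the median on 0 arrays, whereas Ms4a1 reached 8.43 (above it on 9 arrays) and Cd3e 7.95 (on 14). Replicate arrays correlated with r from 0.961 to 0.986. The part of these cell types in the members' values was not tested.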

How the data were processed

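The deposited table holds log2 values. RMA and R 3.0.1 are named in the submitters' processing notes, and no settings are stated. Per the labels, 100 ng of RNA per array was labelled for Affymetrix arrays. It covers 45101 probe sets on 14 arrays. Of 34945 single-gene probe sets the brightest per gene was kept, and 12192 genes above the table's median on at least 2 arrays were tested.

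Differences were fitted in limma 3.58.1 (R 4.3.3) over all 14 arrays and 7 groups, with 7 residual degrees of freedom, 2-sided tests and Benjamini-Hochberg adjustment over the 12192 genes in each of 12 comparisons. "Called", "rose" and "fell" mean adjusted p under 0.05. The planned fit has no block. A blocked fit by experiment, with 6 residual degrees, is given where it alters a call. The design text names 2 independent experiments, and differences between replicates correlated between groups with r from 0.455 to 0.935 over 21 pairs of groups, so the numbers pair the arrays. The code was tested on simulated data. The number of arrays limits the precision. Members, lists and tests were chosen with earlier results of these data known. Named genes are the members, up to 4 genes per list and comparison, and the 3 genes most like each of the 3 members with the widest spread of group means.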

Additional observations from a re-analysis of the deposited data

How the results depend on the processing

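With the replicate block, 4, 1, 4 and 2 members passed with CpG, TNF, CpG after CLIK148 and TNF after CA074Me, against 1, 0, 1 and 1 without it, and the pairing altered no count in the other 8 comparisons. With only the compared groups fitted, 0 passed in each (limma with 2 arrays per group, few residual degrees of freedom). TNF after CA074Me also gave 0 without the filter on dim genes (Bcl2l1 adjusted p = 0.0502), with the mean of probe sets (0.0877) and with cyclic loess (0.0836). Leaving out 1 array of the compared groups gave 0 to 2 members with CpG, 0 to 1 with CpG after CLIK148, 0 with TNF after CA074Me and 0 in the 9 other comparisons. Blocked fits without single arrays, and probe sets fitted singly with the block, were added after seeing the data. No called change of a member reversed under the alternatives run. Causes were not tested. With 2 arrays per group, the blocked intervals of the inhibitor changes in members reach as low as -0.71 and as high as 0.67 log2, both for Pmaip1. Over all genes the block moved the counts called from 234 to 2420 with CpG, 14 to 379 with TNF, 99 to 2075 with CpG after CLIK148, 159 to 1354 with TNF after CA074Me and 1 to 53 between CpG and TNF.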
